A study of Mus musculus with 2 samples.

Results

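The genes described here are those of the cytosolic ribosomal proteins, the protein components of the large and small subunits of the ribosome, in single cells of the mouse femur. They were chosen by symbol alone (Rpl or Rps followed by a number and, for some, the letters a, x, y or l, together with Rplp0, Rplp1, Rplp2 and Rpsa), and no measured value was used. The rule took 83 of the 24866 genes of the deposited table, 51 named for the large and 32 for the small subunit. Of these, 76 are the main copies of 46 large and 30 small subunit proteins, and 7 are second copies (Rpl10l, Rpl36al, Rpl39l, Rpl3l, Rpl6l, Rps27l and Rps4l). Some genes of the ribosome have symbols outside the rule, among them Rps3a1, a further small subunit protein, and Fau, a fusion of a ubiquitin-like protein with a ribosomal protein, and are given separately below.

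The cells came from 1 group of 2 animals, littermate C57/B6 mice of genotype CTSK-cre+ mTMG at postnatal day 6. Cre was driven by the promoter of cathepsin K (Ctsk), so the sorted CTSK-mGFP positive cells are those with present or past activity of that promoter and their descendants. Every cell carried the same reporter and no cell without it was measured. Femur cells were sorted singly into wells, animal 1 into plate 47 and animal 2 into plate 48, so animal and plate cannot be told apart. Of 658 wells, 318 from animal 1 and 335 from animal 2 passed the limits of 500 detected genes and 20% of counts from mitochondrial genes. They held between 9767 and 675621 counts each.

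Each ribosome holds 1 copy of most of these proteins, bound to ribosomal RNA, and the stalk of the large subunit alone carries several copies of Rplp1 and Rplp2. Their mRNAs are among the most abundant of growing cells, and most start with a C followed by an unbroken run of pyrimidines, the terminal oligopyrimidine (TOP) motif, through which their translation is controlled together. Cartilage, bone and tendon cells of the growing limb secrete large amounts of matrix protein and have a high demand for ribosomes. Several genes of the family have close relatives elsewhere in the genome, including many processed pseudogenes, so a short read cannot always be given to 1 row.

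The start sites of a few members are shown because the TOP motif lies at this place. Any link between these bases and the levels given below was not tested. Each line gives 15 bases before and 15 bases after the RefSeq transcription start on build GRCm38, 5′ to 3′ on the gene's strand. Capitals mark the longest run of C and T that touches the window, or the first where runs tie, as far as it lies inside it.
Rps18: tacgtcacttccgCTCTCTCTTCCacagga
Rpl38: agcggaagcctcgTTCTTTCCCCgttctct
Rps27: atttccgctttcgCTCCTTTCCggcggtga
Rps21: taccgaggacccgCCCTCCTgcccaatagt
Rplp0: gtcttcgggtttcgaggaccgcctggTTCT
Rpl23: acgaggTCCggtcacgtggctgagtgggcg
Rpl39l: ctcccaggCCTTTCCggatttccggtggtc
Rps27l: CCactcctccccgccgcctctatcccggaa
Rps18 lies at chr17:33955651-33955680 on the minus strand, Rpl38 at chr11:114668565-114668594 on the plus strand and Rps27 at chr3:90213634-90213663 on the minus strand. In these 3 genes a run of 11, 10 and 9 pyrimidines starts 2 bases before the annotated start. The run of Rps21 (chr2:180257364-180257393, plus strand) starts at the same place and has 7 bases. Rplp0 (chr5:115559452-115559481, plus strand) and Rpl23 (chr11:97782425-97782454, minus strand) have no run of 8 that touches the window. The second copies Rpl39l (chr16:10170213-10170242, plus strand) and Rps27l (chr9:66946071-66946100, plus strand) have runs of 7 and 9 bases. The marked run of Rps27l begins 22 bases before the start and ends inside the window. Another run of 9 in Rps27l lies wholly inside the window and is not in capitals.

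RefSeq gave a promoter for 61 of the 83 members. A pyrimidine run of 8 or more touched the 30 bases around the start on the gene's strand in 45.9% of these members, against 17.4% of 27025 genes. On the other strand the shares were 8.20% and 18.8%. Over 300 bases (250 before and 50 after the start, both strands), the string CCGGAAGT, a core of ETS-family sites, was present in 11 of the 61 members and in 4% of all genes. The shares for AAGATGGC, a core of the YY1 site, were 6.56% and 2.88%. Those for GGGCGG, the GC box, were 59.0% and 35.9%, and none of these 3 strings contains another. These are descriptions of letters in a window and not of bound factors. For each member the RefSeq start nearest its GENCODE start was taken. For all genes the first listed start was taken, so the shares of members and of all genes are not like for like.

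Ribosomal protein genes took up 1 in 5 counts. Their summed level was 198246 CPM, the usual scaling of counts to the library total, in animal 1 and 204275 CPM in animal 2, that is 19.8% and 20.4% of all counts. Over the 653 wells the sum ran from 11855 to 407617 CPM with a median of 203386 CPM. The lowest was a chondrocyte-like well of 17799 counts in which 14.3% of the counts were mitochondrial and 48 members were seen, whereas the median well of each animal showed 78 members. Large subunit rows summed to 105635 and 109260 CPM and small subunit rows to 92611 and 95015 CPM in animals 1 and 2. Across the 4 quadrants of each plate the sum lay between 193627 and 209432 CPM.

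Levels of single members are compared per kilobase of coding length. The highest on this scale was Rpl41, the shortest protein of the family, with 53857 CPM per kilobase. Its coding length is 75 bases in a transcript of 582 bases. Without this scaling Rpl41 stood at 4039 CPM, below Rplp1 at 8206 CPM. It was followed by Rplp1, an acidic protein of the stalk that recruits the elongation factors, with 23994, and Rps21 with 21659 CPM per kilobase. At the other end stood the second copies Rpl10l (0.20 CPM per kilobase) and Rpl3l (0.40), known from testis and from striated muscle. Rpl24 was the lowest main copy, with 19.6 CPM per kilobase from 719 counts in all 653 wells. Of the 75-base stretches in the last 300 bases of the Rpl24 transcript, 79.2% also occur in other annotated transcripts. Over its whole transcript 4 other genes share such stretches. Among them are Gm28037, which has no row in the deposited table, Gm9385 with 3531 counts and Gm12254 with 3969 counts. The row of Rpl9 held 144902 counts, and 100% of its last 300 bases are shared in the same way. The cause of the low count of Rpl24 was not tested, and its level in these cells is uncertain. Whether reads with several matches were counted is not given in the sources used here.

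To compare cell types, wells were clustered on marker genes that include no ribosomal protein gene. This gave 8 classes, of which 6 had at least 10 wells in each animal. Class 1 was periosteal fibroblast-like (67 and 76 wells in animals 1 and 2), class 3 chondrocyte-like (61 and 59 wells) and class 5 tendon and ligament-like (42 and 34 wells). Class 2 was led by Cytl1 and Prg4 (44 and 87 wells), class 4 by Mmp9 and C1qtnf7 (48 and 57 wells) and class 6 by Crabp1 and Tnn (33 and 13 wells). These 3 stayed unnamed because their best marker lists did not meet the naming rule. Class 2 had 2 of 16 chondrocyte genes raised, and class 4 had 2 of 6 synovial and articular genes raised. In class 6 the osteoblast list had a mean log2 ratio to the other wells of -0.93. The classes are rebuilt here and are not the authors' own. The 16 chondrocyte markers summed to between 32579 and 36533 CPM in class 3 and to at most 238 CPM in class 1. The 16 periosteal fibroblast markers summed to 34351 and 30610 CPM in class 1 and to 3799 and 3263 CPM in class 3. Markers of macrophages, neutrophils, erythroid, lymphoid and endothelial cells summed to at most 45.2 CPM per list in any of the 6 classes and either animal. Osteoblast markers summed to 4724 and 4586 CPM in class 3 and to 85.6 and 69.4 CPM in class 1, and Schwann cell markers to 474 and 561 CPM against 81.5 and 67.6 CPM. Osteoclast markers summed to 236 and 266 CPM in class 4 and to at most 82.1 CPM in the other 5 classes. The part of such cells in the results for these classes was not tested.

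Among the 6 compared classes, the mean ribosomal protein sum was lowest in the fibroblast-like cells and highest in the Cytl1 and Prg4 class, followed by the chondrocyte-like cells. The sum was 176263 and 185826 CPM in the fibroblast-like cells of animals 1 and 2. It was 220526 and 225320 CPM in the Cytl1 and Prg4 class and 214054 and 216709 CPM in the chondrocyte-like cells. The class led by Crabp1 and Tnn had 215042 and 210029 CPM. The class led by Mmp9 and C1qtnf7 had 194533 and 187538 CPM, and the tendon and ligament-like cells had 188388 and 185988 CPM.

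In falling order the means were 222923 ± 3390 CPM (SD, n = 2) in class 2, 215381 ± 1877 in class 3, 212536 ± 3544 in class 6, 191036 ± 4946 in class 4, 187188 ± 1697 in class 5 and 181044 ± 6762 in class 1. Classes 2, 3 and 6 lay above classes 1, 4 and 5 in both animals, except that after thinning every well to 9000 counts class 6 of animal 1 (203320 CPM) lay below class 4 of the same animal (204968 CPM). The lowest place of class 1 did not hold in animal 2 after thinning, with 192558 CPM against 190304 CPM in class 5, nor without the deepest 5% of wells, with 186738 against 185988 CPM. The values of classes 3 and 6 overlapped, as did those of classes 4 and 5, and the values of the other neighbours in this order did not. The chondrocyte markers also summed to 20772 and 18988 CPM in class 2, and the periosteal fibroblast markers to 22356 and 15726 CPM in class 6 and to 19770 and 16436 CPM in class 5. The part of these cells in the order was not tested. In an exact paired permutation test with 2 animals the smallest two-sided p is 0.5, so no single sum can pass a threshold. The chondrocyte-like sum exceeded the fibroblast-like sum by 0.25 ± 0.04 on the log2 scale (SD, n = 2), and by 0.20 after the same thinning. In these pooled sums a smaller number of cells with much ribosomal protein RNA and a lower level in every cell cannot be told apart, but the medians of the wells were ordered in the same way for these 2 classes: 182250 and 181816 CPM in fibroblast-like wells against 216874 and 215959 CPM in chondrocyte-like wells.

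**Figure D1:**
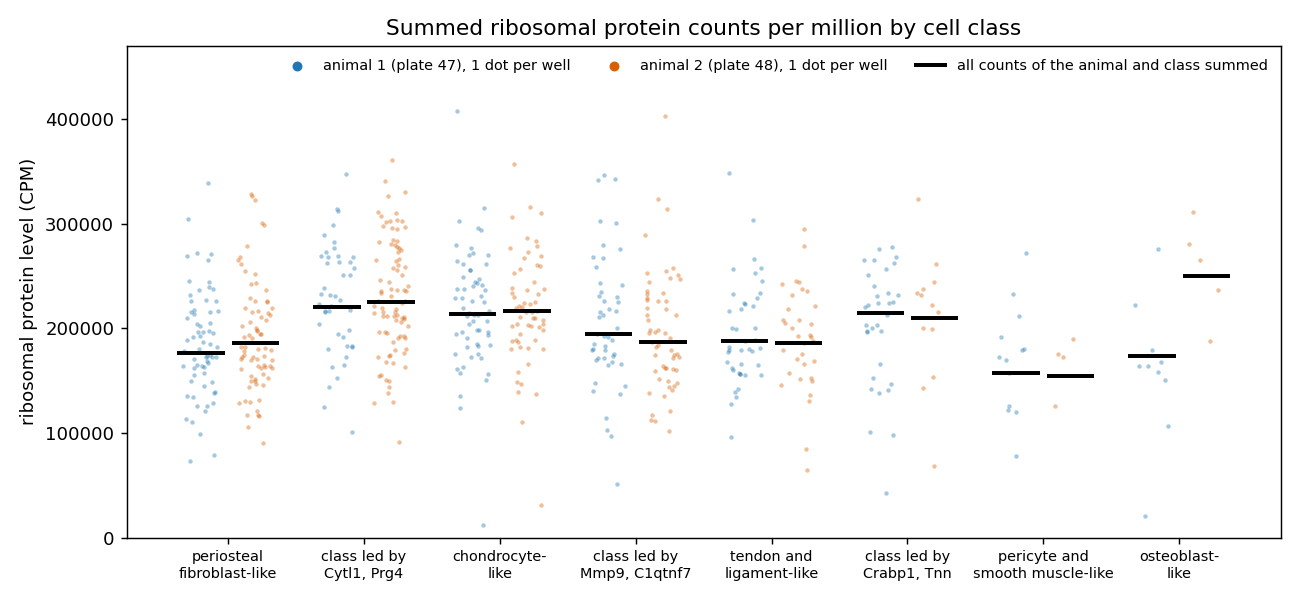
Summed ribosomal protein level in CPM (y axis) for each well (dots) of the 8 cell classes (x axis), animal 1 in blue and animal 2 in orange, with black bars for all counts of an animal and class summed. The bars of the fibroblast-like cells stand at 176263 and 185826 CPM and those of the class led by Cytl1 and Prg4 at 220526 and 225320 CPM, while single wells spread widely within every class.

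Depth also differed between these wells. The median fibroblast-like well had 95327 and 119205 counts and 2321 and 2273 detected genes in animals 1 and 2, and the median chondrocyte-like well had 109630 and 138039 counts and 2294 and 2334 genes. In the Cytl1 and Prg4 class the medians were 99710 and 111236 counts and 2079.5 and 2097 genes. Mitochondrial genes took a median of 2.84% and 2.95% of the counts in fibroblast-like wells and 3.25% and 2.89% in chondrocyte-like wells. The ratio of large to small subunit counts lay between 1.12 and 1.15 in all 6 classes and both animals. Without the deepest 5% of wells the log2 ratio of the chondrocyte-like to the fibroblast-like sum was 0.24.

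The difference between chondrocyte-like and fibroblast-like cells was spread over nearly the whole family. Counts were summed per animal and class and fitted over 13786 genes with edgeR's quasi-likelihood test, with animal as a block, scaling by the trimmed mean of M values (TMM) and Benjamini-Hochberg adjustment. Of the 83 members 80 passed the filter on low counts; Rpl10l, Rpl3l and Rpl6l, with 10, 38 and 72 counts in all wells, did not. The CPM of 72 of the 80 tested members was higher in the chondrocyte-like cells of both animals than in the fibroblast-like cells of either, against 19.9% of all genes tested. Only Rps4l lay lower in the same sense, against 26.9% of all genes. The median log2 fold change of the members was 0.41 and that of all genes was -0.00. All 76 main copies had a fold change above 0 on this scale, from 0.12 (Rpl23a) to 0.67 (Rps6), and all 76 did with DESeq2 size factors and 75 with the library total as scale. Those 2 scales gave members a median of 0.34 and 0.28 and all genes a median of -0.06 and -0.10, so the members' median exceeded that of all genes by 0.38 to 0.41 on every scale.

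In all, 12 members rose past an adjusted p of 0.05 in chondrocyte-like against fibroblast-like cells and none fell, where 0.711% of all genes rose and 0.653% fell. At an unadjusted p of 0.05, 72 of 80 members and 4.98% of all genes were higher. The stalk and its base were represented by Rplp0, which carries Rplp1 and Rplp2, and by Rpl12, which binds beside it. Rplp0 stood at 5422 and 5511 CPM in the chondrocyte-like cells of animals 1 and 2 and at 4314 and 4463 CPM in the fibroblast-like cells, a log2 fold change of 0.45 ± 0.05 (SE, edgeR adjusted p = 0.0084). Rpl12 stood at 3495 and 3695 CPM against 2672 and 2676 CPM (0.56 ± 0.09, edgeR adjusted p = 0.030). In both genes the lower chondrocyte-like value lay well above the higher fibroblast-like value.

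Among the other large subunit genes, Rpl38, whose loss alters the pattern of the axial skeleton in mice, stood at 1699 and 1532 CPM against 1197 and 1143 CPM (0.60 ± 0.11, edgeR adjusted p = 0.044). Rpl23, which also binds Mdm2 outside the ribosome, stood at 3361 and 3596 CPM against 2659 and 2700 CPM (0.51 ± 0.09, edgeR adjusted p = 0.037). The values of the 2 classes did not overlap in either gene. Rpl9, Rpl37 and Rpl26 rose by 0.46, 0.45 and 0.40 on the log2 scale.

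In the small subunit the genes past the threshold included Rps21, Rps18, Rps27a and Rps20. Rps21 stood at 6192 and 5759 CPM in chondrocyte-like against 4522 and 4201 CPM in fibroblast-like cells (0.59 ± 0.10, edgeR adjusted p = 0.036). Rps18, a protein of the subunit's head, stood at 2146 and 2189 CPM against 1549 and 1686 CPM (0.56 ± 0.08, edgeR adjusted p = 0.015). Rps27a, which is made as a fusion with ubiquitin, stood at 3402 and 3459 CPM against 2461 and 2695 CPM (0.55 ± 0.08, edgeR adjusted p = 0.015). The 2 classes were apart in both animals in each of these 3 genes. Rps20 rose by 0.30 on the log2 scale.

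The number of members past the threshold in this comparison depended on the analysis: it was 5 without the filter on low counts, 24 after thinning, 25 with DESeq2 and 27 without the deepest 5% of wells. Among the 8 called members with the largest change, Rpl12, Rps18 and Rps27a stayed past it in all 7 alternatives.

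**Figure D2:**
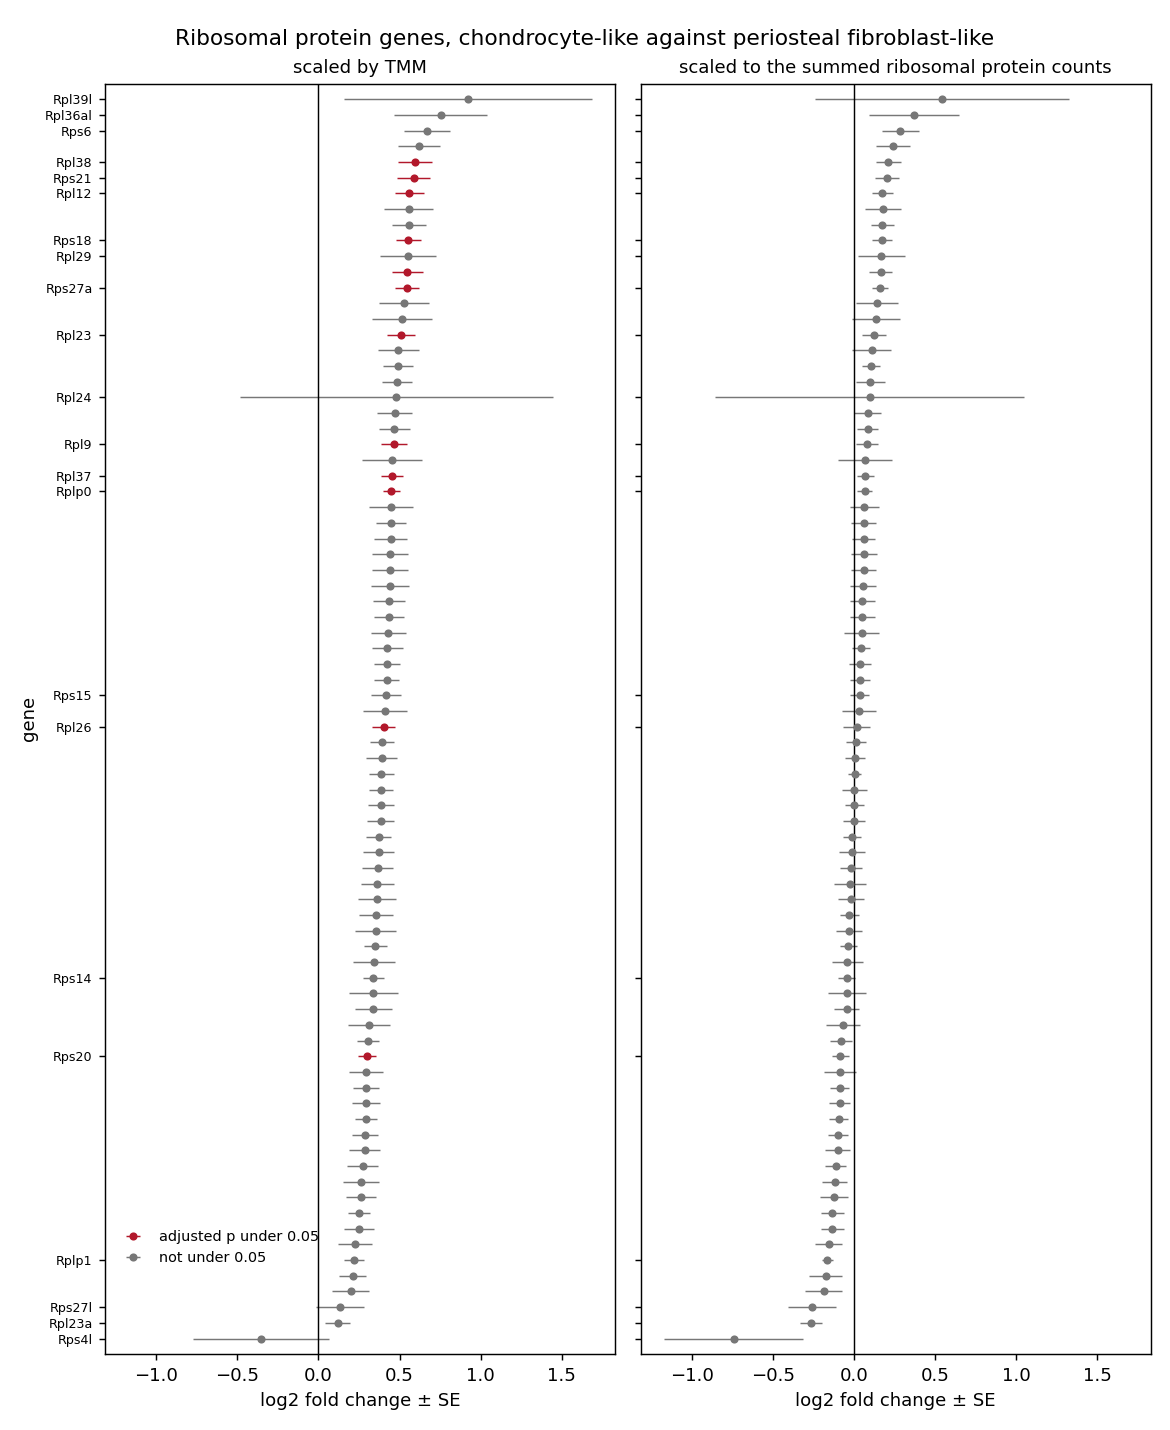
Log2 fold change ± SE (x axis) of the 80 tested members (y axis, ordered by the left panel, with second copies and genes described in the text labelled) in chondrocyte-like against periosteal fibroblast-like cells, scaled by TMM on the left and to the summed ribosomal protein counts on the right, with genes past an adjusted p of 0.05 in red. On the left 79 of 80 genes lie above 0 and 12 are red. On the right the genes centre on 0 and none is red.

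Against the mean of the other 5 classes, the main copies lay on 1 side of 0 in the fibroblast-like cells and in classes 2 and 3. In the fibroblast-like cells all 76 lay below 0 by TMM (75 with DESeq2 size factors, 74 with the library total), with a member median of -0.27 where the median of all genes was 0.24. There 5 members fell past the threshold, and 0.537% of all genes did. They were Rplp0 (-0.42 ± 0.04, edgeR adjusted p = 0.0047), Rps21 (-0.43), Rps27a (-0.36), Rpl9 (-0.36) and Rps14 (-0.30), the last of these being the gene whose reduced dose is linked to anaemia in the 5q deletion syndrome. Rplp0 stood at 4314 and 4463 CPM in this class and between 4987 and 6265 CPM in the 10 other libraries. The count was 1 without the filter, 8 with DESeq2 size factors and 21 with DESeq2, and Rplp0 stayed past the threshold in all 7 alternatives.

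In the Cytl1 and Prg4 class all 76 main copies lay above 0 by TMM (75 with DESeq2 size factors, 74 with the library total), with a member median of 0.25 beside 0.16 for all genes. Rplp1 (0.31 ± 0.05, edgeR adjusted p = 0.044) and Rps14 (0.31 ± 0.05, edgeR adjusted p = 0.046) rose, and 0.297% of all genes did. Rplp1 stood at 9578 and 9426 CPM there and between 7368 and 8712 CPM in the other libraries. Rps14 stood at 8787 and 8387 CPM there and between 6267 and 7682 CPM elsewhere. Among the compared classes both genes were thus highest in this class in either animal. Under DESeq2 size factors neither was past the threshold, without the replicate block 5 members were, with DESeq2 9 and after thinning 14.

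In the chondrocyte-like cells all 76 main copies again lay above 0 by TMM (73 with either other scale), and the member median of 0.23 was close to the 0.21 of all genes. Rpl23 (0.37 ± 0.07, edgeR adjusted p = 0.0498) and Rps18 (0.35 ± 0.06, edgeR adjusted p = 0.043) rose, and 0.58% of all genes did. Neither was past the threshold under DESeq2 size factors or without the filter, while 14 members were after thinning and 11 without the deepest wells.

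No member passed the threshold in classes 4, 5 and 6, in which 0.0218%, 0.406% and 0.435% of all genes did. At an unadjusted p of 0.05 edgeR gave 37, 13 and 10 of 80 members in these classes, beside 7.70%, 9.41% and 10.5% of all genes, and DESeq2 gave 0, 0 and 2 after adjustment. In class 4, 36 of the 37 were lower, as were 1.92% of all genes, with a member median of -0.17 beside 0.12 for all genes. In the tendon and ligament-like cells and in class 6 the member medians were -0.08 and -0.01 beside -0.09 and -0.19 for all genes, and their direction depended on the scale. Main copies above 0 numbered 17 by TMM, 35 with DESeq2 size factors and 7 with the library total in class 5, and 36, 48 and 62 in class 6. At a coarser clustering fewer and larger classes had at least 10 wells in each animal. The tendon and ligament-like class held 113 and 97 wells there, and its member median against the fewer other classes was 0.04. A test for any difference among the 6 classes called Rpl23, Rplp0, Rps14, Rps18, Rps26 and Rps27a, 6 of 80 members against 1.48% of all genes. That number was 10 without the replicate block, 16 without the deepest wells, 33 with DESeq2 and 35 after thinning. It was 1 at the coarser clustering, which tested its fewer classes and not these 6.

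**Figure D3:**
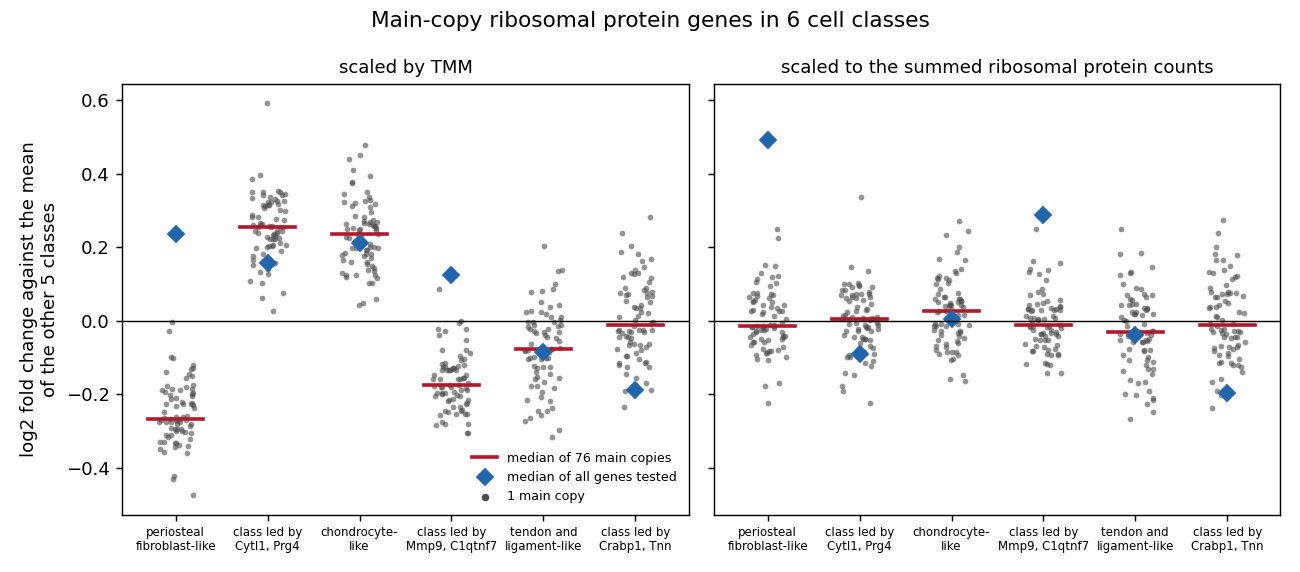
Log2 fold change of each of the 76 main copies (dots) against the mean of the other 5 classes (y axis) in 6 classes (x axis), scaled by TMM on the left and to the summed ribosomal protein counts on the right. Red bars are the medians of the main copies and blue diamonds the medians of all genes tested. On the left the medians run from -0.27 in the fibroblast-like cells to 0.25 in the class led by Cytl1 and Prg4, and on the right they lie near 0.

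To find single genes that depart from the family, each library was also scaled to its summed ribosomal protein counts. This sets the family average to 0 by construction and moved the median of all genes by -0.37 on the log2 scale in chondrocyte-like against fibroblast-like cells. The fold changes of 74 of the 76 main copies lay within 0.25 of 0 in chondrocyte-like against fibroblast-like cells. Between 74 and 76 did in the class comparisons. The share of all genes within this range was not counted, so the closeness is not shown to be particular to the members. The median standard error of a member was 0.06 in the class comparisons and 0.08 between the 2 classes.

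On the family scale no member was past the threshold in the test for any difference among classes, and 1.48% of all genes were. At an unadjusted p of 0.05, 16 of 80 members and 10.9% of all genes were. Between chondrocyte-like and fibroblast-like cells edgeR and DESeq2 called no member on this scale, and 1.33% of all genes were called. At an unadjusted p of 0.05 edgeR gave 10 of 80 members there, a share close to the 10.6% of all genes. The most even main copies were Rps15, Rpl37, Rpl13a, Rpl34 and Rps10. The class values of Rps15 spanned 0.07 on the log2 scale, and its CPM ran from 3156 in fibroblast-like cells of animal 1 to 4247 in the Cytl1 and Prg4 class of animal 1, following the sum of the family.

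Of the 6 class comparisons on this scale, edgeR called a member in 1, Rplp1 in class 3. The share of all genes called was 1.55% in class 1, 0.319% in class 2, 1% in class 3, 0.0508% in class 4, 0.442% in class 5 and 0.384% in class 6. The members at an unadjusted p of 0.05 numbered 9, 6, 14, 5, 16 and 16 of 80 in that order, beside 14.1%, 8.69%, 9.65%, 9.05%, 9.72% and 10.8% of all genes, so that in classes 1, 2 and 4 the members' share was below that of all genes. DESeq2 called 1, Rpl39l in class 6. Rplp1 fell against the family by 0.16 ± 0.03 in chondrocyte-like cells (edgeR adjusted p = 0.0456), in which 0.609% of all genes fell. Its level there, 8274 and 7870 CPM, was below the 9578 and 9426 CPM of the Cytl1 and Prg4 class although the family sums of the 2 classes were near each other. The call was lost with DESeq2, without the replicate block, after thinning, without the deepest wells and at the coarser clustering. Rpl23a had the lowest family-scaled value of the main copies in the same cells, -0.16 (edgeR adjusted p = 0.30), with 2693 and 2587 CPM in chondrocyte-like and 2589 and 2744 CPM in fibroblast-like cells.

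The widest departures were those of the second copies. Rpl39l is a copy of Rpl39, a small protein that lines the exit tunnel, and is known for its expression in testis. It shares no 75-base stretch with another annotated transcript. Rpl39l stood at 446 and 591 CPM in the class led by Crabp1 and Tnn. In the compared classes 1 to 5 it stood at 65.7, 132, 157, 44.2 and 234.6 CPM in animal 1. The values of animal 2 were 48.3, 97.2, 50.5, 159 and 68.6 CPM. Both values of class 6 were above all 10 others of the compared classes. In the 2 classes with too few wells, it stood at 755 and 90.3 CPM in osteoblast-like cells, seen in 7 of 10 and 1 of 5 wells. In pericyte and smooth muscle-like cells it stood at 77.6 and 0 CPM.

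Against the family, Rpl39l was higher in class 6 by 2.32 ± 0.52 on the log2 scale (edgeR adjusted p = 0.15), which did not pass the threshold. DESeq2 (adjusted p = 3.1e-04) and edgeR after thinning (adjusted p = 0.0016) called it, and without the deepest wells the adjusted p was 0.22. The transcript was seen in 18 of 33 and 8 of 13 wells of class 6, or 54.5% and 61.5%. In the other 5 compared classes it was seen in between 12.5% and 35.7% of the wells. After thinning these shares were 48.5% and 46.2% against 6.58% to 21.3%. One well held 32.7% of the Rpl39l counts of class 6 in animal 2, and 1 well held 16.9% in animal 1. The main copy Rpl39 stood at 3017 and 2983 CPM in class 6 and between 2389 and 3287 CPM elsewhere.

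Rps4l is annotated by GENCODE as a transcribed processed pseudogene, and Rps4x is the main copy. Rps4l stood at 292 and 483 CPM in class 6 and between 96.6 and 276 CPM in the other 10 libraries. Class 6 was thus the highest of the compared classes in both animals here too. In the classes with too few wells, Rps4l stood at 534 and 400 CPM in pericyte and smooth muscle-like cells. It stood at 418 and 289 CPM in osteoblast-like cells. Against the family the difference was 0.92 ± 0.31 (edgeR adjusted p = 0.33), and it was called after thinning only (1.10, edgeR adjusted p = 0.027). Rps4x stood at 2305 and 2290 CPM in class 6 and between 1824 and 2371 CPM elsewhere.

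Rps27l, a copy of Rps27 whose gene is a known target of p53, was highest among the 6 compared classes in the class led by Mmp9 and C1qtnf7, at 1052 and 914 CPM, and stood between 611 and 906 CPM in the other 5. In the 2 classes with too few wells for the comparisons, it stood at 834 and 1240 CPM in the pericyte and smooth muscle-like cells and at 1279 and 889 CPM in the osteoblast-like cells. The lower of the 2 class 4 values lay just above the fibroblast-like value of animal 1, 906 CPM. Against the family Rps27l was higher in class 4 by 0.45 ± 0.11 (edgeR adjusted p = 0.28), not past the threshold. Rps27 showed no such rank, with 2438 and 2453 CPM in class 4 and 2771 and 2607 CPM in the fibroblast-like cells. Rpl36al, a copy of Rpl36a, ran from 341 to 611 CPM with overlapping classes, and its animals differed most in the tendon and ligament-like cells (341 and 606 CPM). Among main copies other than Rpl24, which rests on few counts, Rpl29 and Rps6 had the widest class values on the family scale, spanning 0.54 and 0.49.

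**Figure D4:**
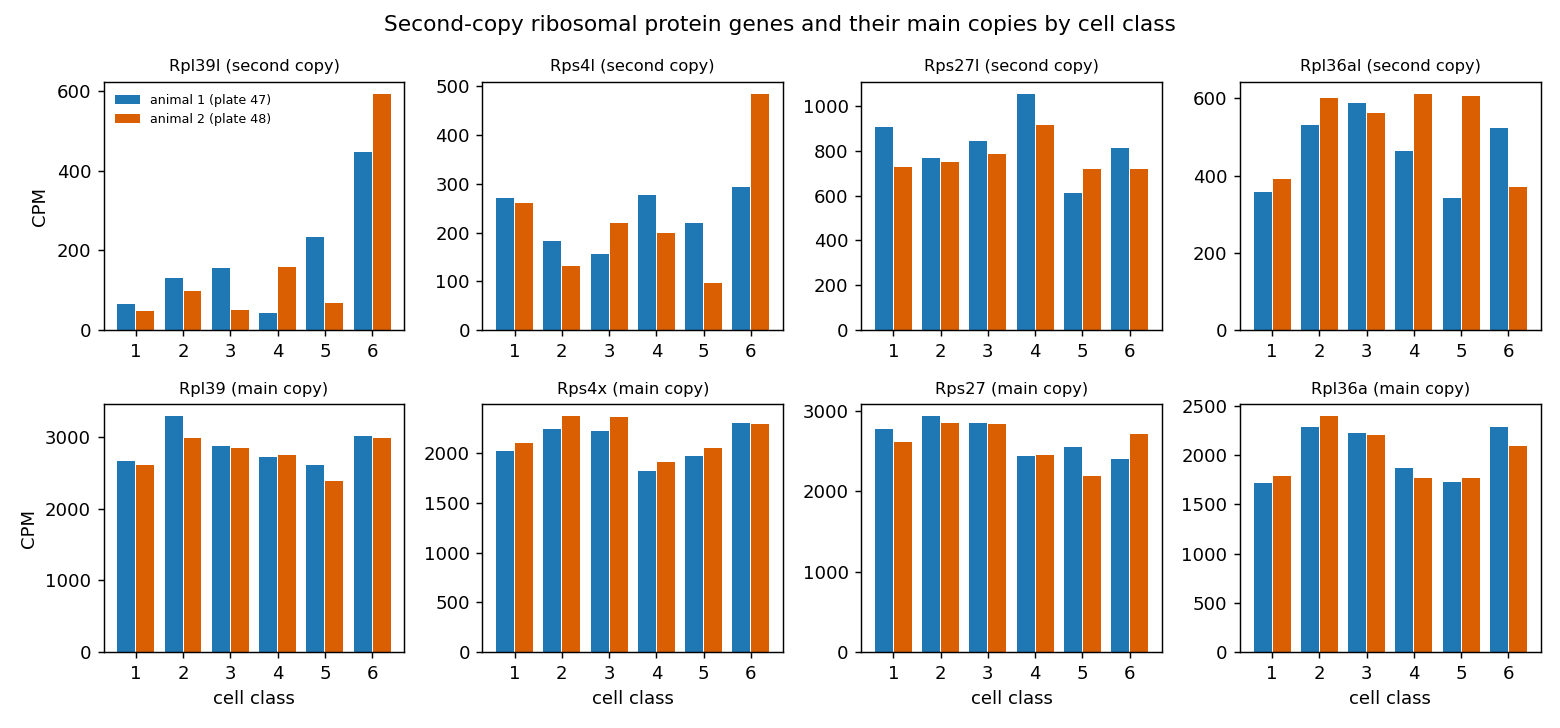
CPM (y axis) of 4 second copies (top row) and their main copies (bottom row) in cell classes 1 to 6 (x axis), animal 1 in blue and animal 2 in orange, with 1 bar per animal and class. Rpl39l stands at 446 and 591 CPM in class 6 and at most at 234.6 CPM in the other classes shown. Its main copy Rpl39 stays between 2389 and 3287 CPM in these other classes.

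The 2 plates gave similar levels for most members. The log2 ratio of plate 48 to plate 47 had a median of 0.05 over the 80 tested members and of -0.05 over all genes tested. Within 0.25 of 0 lay 78 of 80 members, and the share of all genes in this range was not counted. The lowest ratio was that of Rpl39l (-0.98, 201 and 102 CPM) and the highest that of Rpl35 (0.20, 748 and 859 CPM). Higher on plate 48 in all 6 classes were 5 of 80 members, among them Rpl13, Rpl15, Rpl35 and Rps2, against 1.28% of all genes. Rpl38, Rpl5 and Rps20 were lower in all 6, 3 of 80 against 5.15%. Rpl13 stood at 2101 CPM on plate 47 and 2326 CPM on plate 48. With 1 animal on each plate these ratios have no replicate and no test.

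**Figure D5:**
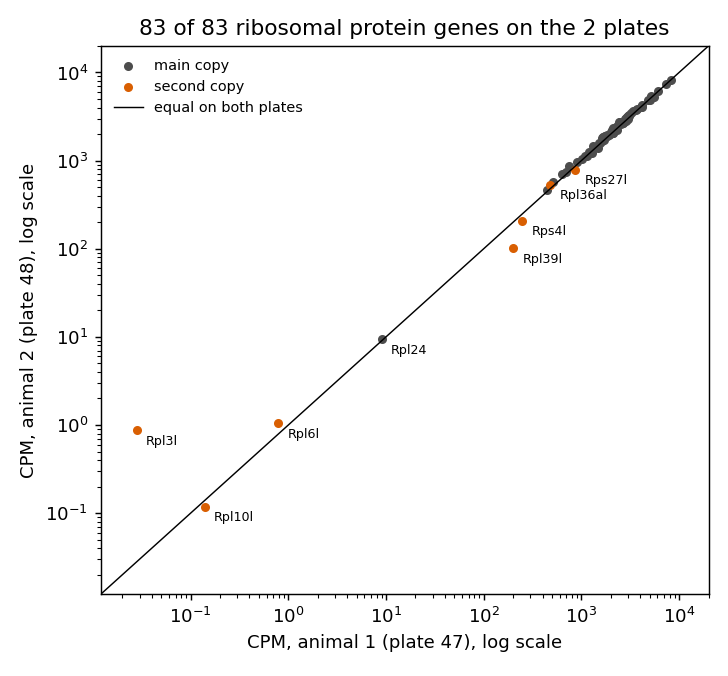
CPM of the 83 members on plate 47 (x axis, log scale) and plate 48 (y axis, log scale), main copies in grey and second copies in orange, with a line where both are equal. Main copies lie along the line from Rpl24 at 9.06 and 9.39 CPM up to Rplp1 and the other abundant members, and Rpl39l lies below it at 201 and 102 CPM.

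Within a class and animal, members rose and fell together from well to well. The rank correlation of a member with the summed CPM of the other members, averaged over 12 groups of wells (6 classes in 2 animals), had a median of 0.63 over the 77 members seen in at least 50% of the wells of these classes. The sums of large and small subunit genes had a mean rank correlation of 0.95. The median of 983 other genes was -0.02. The wells of a group come from 1 animal and 1 plate, with its 4 quadrants pooled. Each value is also a share of its well's total, so the coefficients are descriptions only. Rplp1, Rps26 and Rpl32 stood highest at 0.72. Rps27l, at 0.02, and Rpl36al, at 0.13, stood lowest, and the next lowest member was Rps2 at 0.39. Rps27l and Rpl36al were also the least often seen of the 77, in 89.2% and 94.4% of the wells of these classes. The next was Rpl29, at 97.9%. The part of detection in their low values was not tested.

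The genes outside the family whose wells followed it most closely were Tpt1 (0.69), which has a TOP mRNA, Rps24-ps3 (0.66), Rps3a1 (0.66), Fau (0.60) and Rpl37rt (0.58). Rps24-ps3 carries the sequence of a processed copy of Rps24. It shares 144 stretches of 75 bases with Rps24, and Rpl37rt shares 196 with the member Rpl37. Whether counts of these 2 rows are reads of the members was not tested. The mean rank correlation of the family sum with a well's total counts was -0.26, with its detected genes -0.36 and with its mitochondrial share 0.17, over the same 12 groups.

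Other genes of the ribosome and its production were taken from 6 lists and compared between chondrocyte-like and fibroblast-like cells, where 1.36% of all genes passed in either direction. Of 7 tested cytosolic ribosome genes outside the symbol rule, Rps3a1 rose, from 2580 and 2746 CPM to 3647 and 3759 CPM (0.61 ± 0.08, edgeR adjusted p = 0.015), and the list's median was 0.41. Of 12 elongation factors and other TOP mRNAs, Eef1b2, a subunit of the exchange factor of elongation factor 1, rose from 1592 and 1555 CPM to 2318 and 2147 CPM (0.64 ± 0.10, edgeR adjusted p = 0.022), with a list median of 0.41. Of 36 ribosome biogenesis genes, Nop10, a component of the particles that guide pseudouridylation of ribosomal RNA, rose from 433 and 456 CPM to 747 and 804 CPM (0.94 ± 0.16, edgeR adjusted p = 0.038), with a list median of 0.44. No gene in these 3 lists fell past the threshold.

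Mitochondrial ribosomal proteins, which build a separate ribosome, had a list median of 0.05, and none of 76 passed in edgeR or in DESeq2, with 3 at an unadjusted p of 0.05. Initiation factors had a median of 0.09, and none of 35 passed in edgeR or DESeq2, with 3 unadjusted. The 13 genes of growth control of ribosome production had a median of -0.16, with none past the threshold in edgeR, 1 in DESeq2 and 2 unadjusted. At the same unadjusted p of 0.05, 5 of 7 other cytosolic ribosome genes passed, as did 6 of 12 elongation factors and other TOP mRNAs. Only 2 of 36 ribosome biogenesis genes did, beside 10.3% of all genes. The share of the biogenesis genes, like that of the initiation factors, was thus below that of all genes. The lists were compared by these counts and medians only and no difference between lists was tested.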

How the data were processed

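The authors deposited 1 table of whole-number counts per gene and well, with columns named, per the file headers, by well barcode, plate and quadrant. The submitters' processing notes name CASAVA and build mm10. Not given in the sources used here are the aligner, the annotation and whether duplicate reads were collapsed, so a count is not read as a molecule. Per the labels' protocols, template switching and PCR came before barcoding and Nextera XT libraries. The 2 plates share all 95 well barcodes. The total after filtering was 35542100 counts for plate 47 and 42280920 for plate 48.

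Filtering removed 5 wells, with a mitochondrial share of 26.7% to 94.2%. Wells were clustered (leidenalg 0.10.2, resolution 1, 15 neighbours, 20 components, centred per animal) on 122 genes of 17 marker lists, which were left out of the tests. No doublet caller was run. Counts were summed per animal and class with at least 10 wells in each and fitted with edgeR 4.0.16 under R 4.3.3, with animal as block because all classes come from both animals (5 residual degrees of freedom). DESeq2 1.42.0 was an alternative. Fold changes carry the SE of the fit and summed CPM the SD over animals. Gene models and sequences are GENCODE M21 and RefSeq on GRCm38, the assembly of mm10. The fit was tested on simulated data, in which it called few of the changes as small as those of these members. A member that missed the threshold is thus not shown to be unchanged. It also missed most of the much larger changes set in other genes, so the shares of all genes called are limited in the same way.

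The text names up to 8 members per comparison past the threshold in the same direction in both animals, members that depart most or least from the family, second copies with their main copies, extremes of level and of plate difference, up to 4 per list, and the 5 closest other genes. Rpl26, Rpl23a, Rps26, Rpl32, Gm9385, Gm12254 and Gm28037 were named after the results were seen. Members and lists were chosen with earlier results of these data known. Some results for single genes are not reported here.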

Additional observations from a re-analysis of the deposited data

Results flagged for a closer look

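The 255 rows named as pseudogenes of these members lie outside the symbol rule and enter none of the comparisons, yet all 255 held counts. They summed to 2983 CPM on plate 47 and 2720 CPM on plate 48, far above the 3 counts that a total of 0 would allow, and no control was measured to set beside them. The largest was Rps24-ps3 with 21488 counts, 5.70% of the count of Rps24, followed by Rps26-ps1 with 11855 counts. Rpl10a-ps1 held 8537 counts, 15.1% of the count of Rpl10a. Whether these are transcripts of the pseudogenes or reads of the parent genes was not tested.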

How the results depend on the processing

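Over 124 alternatives of 18 results for single members past the threshold, 88 stayed past it, 36 did not, and 0 changed direction. Members called in class 1 numbered 8 under DESeq2 size factors, 21 under DESeq2's Wald test and 1 without the filter. In class 2 they numbered 0 under size factors, 9 under the Wald test and 14 after thinning. In class 3 they numbered 0 under size factors and 0 without the filter, 14 after thinning and 11 without the deepest wells. In class 6 they numbered 2 under the Wald test and 2 after thinning. In chondrocyte-like against fibroblast-like cells they numbered 25 under the Wald test, 5 without the filter, 24 after thinning and 27 without the deepest wells. For any difference among classes they numbered 33 under DESeq2, 35 after thinning, 16 without the deepest wells and 1 at Leiden resolution 0.5. At that resolution fewer and larger classes were compared. Against the family, class 3 had 0 under the Wald test, after thinning, without the deepest wells and at resolution 0.5, class 6 had 1 under the Wald test and 2 after thinning, and the test of any difference had 2 after thinning. Without the replicate block, members called numbered 5 in class 2, 10 for any difference and 0 against the family in class 3; the block moved no other count of members by over 1.5 times.

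The log2 ratio of the chondrocyte-like to the fibroblast-like sum was 0.20 after thinning, and ran from 0.22 without replicate 1 to 0.28 without replicate 2. As a share outside the 50 most abundant other genes it was 0.27, and with the pseudogene rows 0.25, both chosen after seeing the data. A fit without an animal leaves no residual degrees of freedom and was not run. DESeq2 has no test of any difference against the family here. The causes were not tested. The smallest library, class 6 of animal 2, held 13 wells and 1638519 counts.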

Other observations

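Classes 7 and 8 had too few wells for the comparisons. The osteoblast-like cells (10 and 5 wells) had a ribosomal protein sum of 173885 CPM in animal 1, where single wells ran from 20375 to 276291 CPM, and of 250623 CPM in animal 2, where they ran from 187570 to 311701 CPM. The pericyte and smooth muscle-like cells (13 and 4 wells) had 157521 and 154627 CPM, lower in both animals than any of the 6 compared classes. The second copy Rpl39l stood at 755 CPM in osteoblast-like cells of animal 1, seen in 7 of 10 wells with 33.8% of its counts in 1 well, and at 90.3 CPM in animal 2, where 1 of 5 wells held all of its counts. Rps4l stood at 534 and 400 CPM in the pericyte and smooth muscle-like cells and at 418 and 289 CPM in the osteoblast-like cells, against 96.6 to 483 CPM in the compared classes.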
